A study of Mus musculus with 13 samples.

Results

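Germline, meiosis and piRNA pathway genes were followed in mouse Yumm1.7 melanoma cells with and without 5-Aza-CdR. The set holds 37 protein-coding genes of the 54532 genes in the deposited count table. They were listed by symbol, by a rule that uses no measured value but with earlier results of these data known, and each was matched by its Ensembl identifier to GENCODE M21 on GRCm38. Yumm1.7 is an established mouse melanoma line, labelled wild type. Cells were kept in DMSO, exposed for 12 h to ADAR1i-124 at 10 μM, exposed for 72 h to 5-Aza-CdR at 1 μM, or given both compounds. ADAR1i-124 inhibits the RNA editing activity of ADAR1, and 5-Aza-CdR (5-aza-2′-deoxycytidine) is a nucleoside that depletes DNA methyltransferases. Total RNA was sequenced after removal of ribosomal RNA, and further RNA was pulled down by J2, an antibody to double-stranded RNA, by Z22, which binds Z-RNA, or by IgG. Each fraction and treatment has 1 library, 13 in all. In the combination 5-Aza-CdR came first and was followed by ADAR1i-124 at 10 μM for a further 12 h. A combination with ADAR1i-124 at 1 μM was also used, and the labels give neither the dose of each combination library nor the treatment behind the IgG library.

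Germ cells pass on the genome, and their dedicated genes are silent in nearly all somatic cells. Many of these genes have CpG-rich promoters whose DNA methylation is set in the early embryo and helps to keep them silent, together with complexes that carry E2f6, Mga and Max. During meiosis, homologous chromosomes are held together by the synaptonemal complex on a cohesin axis while breaks in the DNA are repaired by recombination. In the piRNA pathway, PIWI proteins loaded with small RNAs, and Tudor proteins that gather them in granules, silence transposable elements. Germline genes that appear in tumours are known as cancer testis genes.

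Promoters of 5 members are printed. Of these, 4 belong to the 8 genes that were 4-fold higher with 5-Aza-CdR in both J2 and Z22, and Tdrkh was lower with it. The sequences are the bases before the RefSeq start on GRCm38.p6, read 5′ to 3′ on the gene's strand, with each CG dinucleotide in capitals. Dazl lies at chr17:50293637-50293870 on the minus strand, Tex19.1 at chr11:121145893-121146142 on the plus strand, Asz1 at chr6:18109062-18109311 on the minus strand, Mov10l1 at chr15:88982744-88982908 on the plus strand and Tdrkh at chr3:94412994-94413243 on the plus strand. Bases that lie in a GENCODE exon of the same gene were left out, 16 for Dazl and 85 for Mov10l1.
Dazl: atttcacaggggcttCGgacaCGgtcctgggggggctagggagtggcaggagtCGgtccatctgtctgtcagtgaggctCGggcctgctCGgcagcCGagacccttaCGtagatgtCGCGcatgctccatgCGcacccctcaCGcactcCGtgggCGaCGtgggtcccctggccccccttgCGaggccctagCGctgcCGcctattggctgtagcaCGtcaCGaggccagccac
Tex19.1: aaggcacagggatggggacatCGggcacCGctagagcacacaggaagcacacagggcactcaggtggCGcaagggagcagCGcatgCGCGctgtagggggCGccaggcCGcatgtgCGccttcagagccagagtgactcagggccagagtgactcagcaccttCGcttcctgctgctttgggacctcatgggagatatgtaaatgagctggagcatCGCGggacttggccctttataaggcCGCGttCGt
Asz1: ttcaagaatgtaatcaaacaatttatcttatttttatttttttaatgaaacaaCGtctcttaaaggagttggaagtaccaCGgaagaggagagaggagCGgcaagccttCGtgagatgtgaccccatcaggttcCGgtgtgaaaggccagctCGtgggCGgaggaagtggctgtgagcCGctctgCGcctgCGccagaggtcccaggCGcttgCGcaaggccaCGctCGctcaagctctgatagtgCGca
Mov10l1: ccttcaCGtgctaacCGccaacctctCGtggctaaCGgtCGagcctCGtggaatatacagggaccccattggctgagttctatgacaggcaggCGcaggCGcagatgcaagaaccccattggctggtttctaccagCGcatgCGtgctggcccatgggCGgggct
Tdrkh: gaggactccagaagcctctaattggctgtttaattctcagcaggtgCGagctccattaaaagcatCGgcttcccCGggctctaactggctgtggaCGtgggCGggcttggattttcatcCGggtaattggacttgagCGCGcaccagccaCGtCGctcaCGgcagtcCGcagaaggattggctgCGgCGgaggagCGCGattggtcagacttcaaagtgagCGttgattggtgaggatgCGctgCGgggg
CG dinucleotides number 19 in the 234 bases of Dazl, 15 in Tex19.1, 15 in Asz1, 11 in the 165 bases of Mov10l1 and 19 in Tdrkh. The others of the 8 genes, not printed, had 12 in Sycp3, 26 in Stag3, 14 in Tex101 and 8 in Tdrd9 over 250 bases. In Tdrd9 the CpG content was 0.427 of that expected from the bases.

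Promoters were found in RefSeq for 33 of the 37 members, 43 promoters in all. Spo11, Tex11, Tdrd6 and Piwil2 were not matched. Over the 250 bases before the start, the members' promoters held a median of 16 CG dinucleotides, against 6 for all 32841 RefSeq promoters. The CpG content relative to that expected from the bases had a median of 0.71 in members and 0.37 in all promoters, and 67.4% of the members' promoters were at 0.6 or more, against 34.0% of all. The E-box CACGTG, a palindrome bound by Max and its partners, stood in 41.9% of the members' promoters and in 6.02% of all. Among promoters with a CpG ratio of at least 0.6 it stood in 51.7% of those of members and in 9.49% of all such promoters. The E2F6-type motif TCCCGC, searched on both strands and therefore also as GCGGGA, stood in 30.2% of the members' promoters and 16.9% of all. Among promoters with a CpG ratio of at least 0.6 the shares were alike, 37.9% and 37.5%. In the promoters of members 4-fold higher with 5-Aza-CdR in at least 3 comparisons, CACGTG stood in 9 of 13 (69.2%) and TCCCGC in 2 (15.4%). In the 30 promoters of the other members they stood in 9 (30%) and 11 (36.7%). These shares are a description only, because measured values chose the members. Each start of a gene was counted as a promoter, and promoters of the same gene can overlap. The motifs can share at most 1 end base with each other, and a match is not evidence of binding.

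Counts summed to 17015425 in the DMSO library of total RNA, 17617961 with ADAR1i-124 and 34571822 with 5-Aza-CdR. They summed to 11767409 to 14396132 in the J2 libraries and 8167960 to 14663357 in the Z22 libraries. The combination library of total RNA, with 1245894 counts, was left out because its counts follow the other strand. Levels below are raw counts or CPM, the count divided by the library total and multiplied by 1000000, and a gene was taken as detected at 3 counts or more. A pseudocount of 0.5 CPM was added before the log2, which makes the change of a low gene smaller. Intervals of fold changes are exact 95% Clopper-Pearson intervals and cover counting error only, because reads are not independent molecules. With 1 library per condition no difference has a replicate check, so no test was run and no p-value is given. In these bulk samples, more cells with a transcript and more transcript per cell cannot be told apart.

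Several libraries stood apart in genes outside the set. Gm42418, a transcript that collects ribosomal RNA reads, took 34.9% of the Z22 DMSO library and 10.6% to 15.8% of the other Z22 libraries. Over genes averaging 1 CPM or more, the median log2 change of Z22 5-Aza-CdR over Z22 DMSO was 1.06 when scaled by library totals and 0.19 when scaled by edgeR's TMM factors. The fibroblast marker Pdgfra stood at 5.23 CPM in total DMSO, 25.4 with ADAR1i-124 and 150 with 5-Aza-CdR, but at 43.2, 4.17 and 10.8 CPM in the matching J2 libraries. The study's methods describe dividing extracted RNA of DMSO and ADAR1i-124 cells into an input part and a part for precipitation, which was first digested with a nuclease specific for single-stranded RNA. Whether the total RNA libraries are those inputs was not stated, nor was it described for 5-Aza-CdR. Of 7 melanocyte markers, Mitf was at 377 counts in total DMSO while Sox10, Dct, Tyr, Tyrp1, Pmel and Mlana were all under 3 counts, so the pigment cell markers that the melanoma label would carry were at or near 0.

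More members were detected in every library with 5-Aza-CdR than in any without it. In total RNA, 13 members had at least 3 counts with DMSO, 11 with ADAR1i-124 and 30 with 5-Aza-CdR. In J2, DMSO gave 14, ADAR1i-124 gave 10, 5-Aza-CdR gave 29 and the combination gave 30. In Z22, they were 6, 11, 31 and 30 in the same order. The IgG library had 11. The lowest library with 5-Aza-CdR thus held 29 detected members and the highest without it held 14. Of the 37 members, 20 were under 3 counts in all 6 libraries without 5-Aza-CdR, and 12 of those 20 reached 3 counts in all 5 libraries with it, against 2.09% of all such genes.

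**Figure D1:**
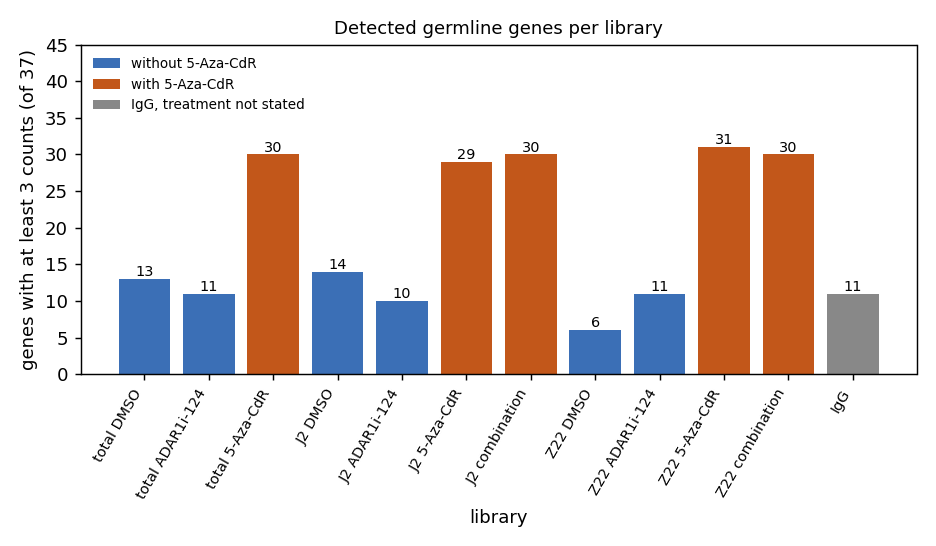
Number of the 37 germline genes with at least 3 counts in each of 12 libraries, as bars from 0, with blue bars without 5-Aza-CdR, orange bars with it and a grey bar for IgG. The orange bars lie between 29 and 31 and the blue bars between 6 and 14.

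Of the members under 3 counts in both the DMSO and the ADAR1i-124 library of total RNA, 16 of 23 reached 3 counts with 5-Aza-CdR, against 24% of all such genes and 31.1% of such protein-coding genes. The 5-Aza-CdR library of total RNA is the deepest, which by itself makes 3 counts easier to reach. At a common level of 0.176 CPM, 14 of 24 members passed from below to above, against 11.1% of all genes. In J2, 16 of 23 members reached 3 counts in both libraries with 5-Aza-CdR, where 6.95% of all such genes and 11.5% of such protein-coding genes did. In Z22, 18 of 25 did, against 5.21% of all and 8.81% of protein-coding genes. Mael, Smc1b, Meioc, Stra8, Tdrd6 and Piwil1 did not pass in this way in any fraction, nor did Tdrd1 in total RNA and Dmc1 in J2 and Z22. Stra8, which starts meiosis, and Piwil1, the PIWI protein of the late piRNA pathway, were at 0 counts in each of these 11 libraries.

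In total RNA, 4 members were at least 4-fold higher with 5-Aza-CdR than with DMSO on the scale with 0.5 CPM added, against 2.66% of the 33781 genes with any count. They were Dazl, Tex19.1, Tdrd9 and Mov10l1. No member was 4-fold lower, against 0.755% of all genes. The median log2 change over the 37 members was 0.52 (95% interval of the median over genes 0.23 to 0.93), and the median of all genes was 0.00. This interval, like those of the J2 and Z22 medians below, runs over the listed genes within single libraries. The genes are not independent replicates, so it does not measure the spread between cultures. Above 0 stood 27 members, against 50.1% of all genes, and 4 stood below. The summed level of the set was 128 CPM with DMSO, 71.8 with ADAR1i-124 and 153 with 5-Aza-CdR, and most of it came from Tdrd7.

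In J2, 14 members were at least 4-fold higher with 5-Aza-CdR than with DMSO, against 1.37% of all genes. The comparison of the combination with ADAR1i-124 alone gave 17 members, against 2.35% of all genes. The medians over the members were 1.14 (0.49 to 2.16) and 1.69 (0.94 to 2.53) on the log2 scale, and both medians over all genes were 0. In 12 members the lower of the J2 libraries with 5-Aza-CdR was at least 4-fold over the higher of those without it, against 0.841% of all genes. By any amount, 27 members had both J2 libraries with 5-Aza-CdR above both without it, against 20.9% of all genes.

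Z22 gave 19 members at least 4-fold higher with 5-Aza-CdR than with DMSO, against 8.39% of all genes, in the comparison that rests on the Z22 DMSO library. The combination over ADAR1i-124, which does not use that library, gave 11 members, against 1.32% of all genes. Medians were 2.07 (1.25 to 2.62) and 1.21 (0.52 to 1.91) for the members and 0.32 and 0 for all genes. The same 11 members had both Z22 libraries with 5-Aza-CdR at least 4-fold over both without it, against 0.633% of all genes. Both libraries with 5-Aza-CdR lay above both without it, by any amount, for 27 members, against 25.4% of all genes. The genes separated 4-fold in both antibodies numbered 8, out of 12 in J2 and 11 in Z22, against 0.494% of all genes. They were Dazl, Sycp3, Stag3, Tex101, Tex19.1, Tdrd9, Asz1 and Mov10l1.

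**Figure D2:**
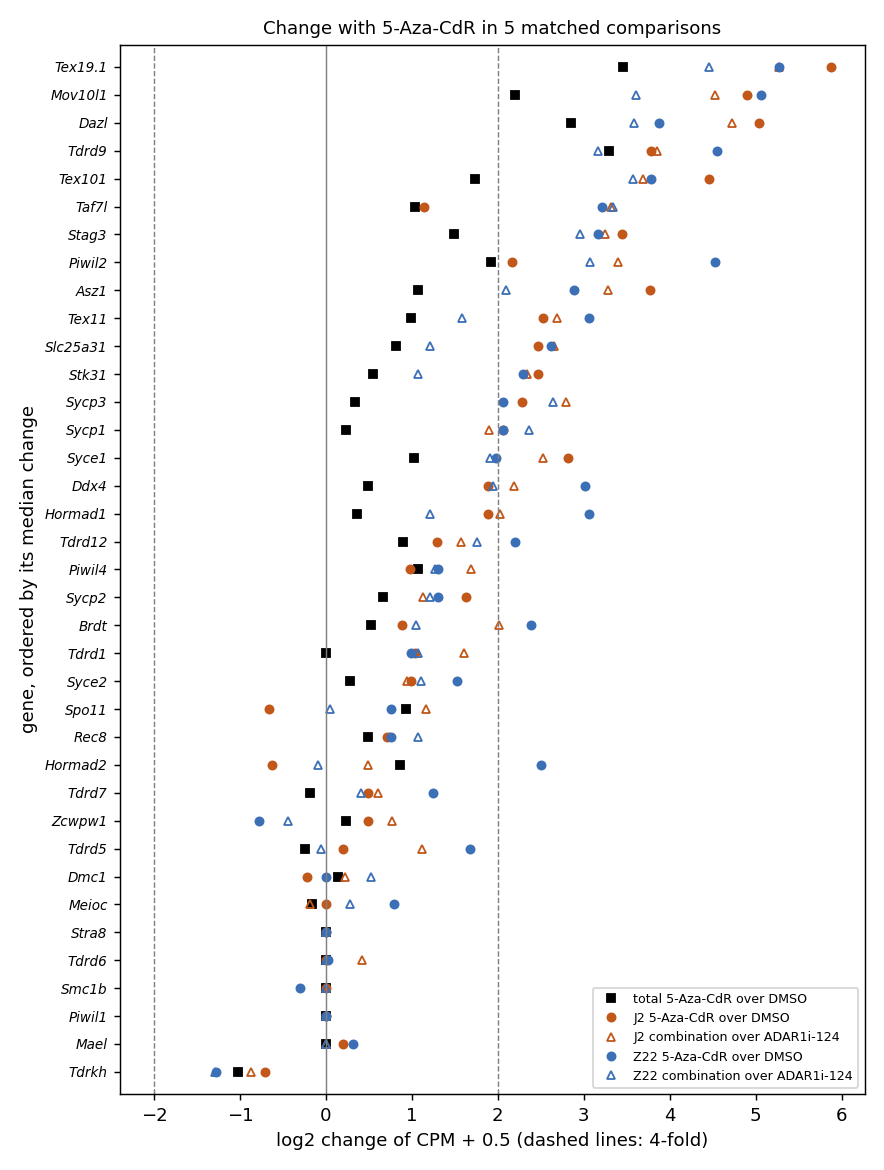
Log2 change of CPM + 0.5 with 5-Aza-CdR for each of the 37 genes on the y axis, ordered by their median change, with 1 symbol for each of 5 treatment-matched comparisons and dashed lines at 4-fold. Tex19.1 reaches the highest value, 5.87 in J2, Tdrkh lies below 0 in all 5, and the black squares of total RNA lie to the left of the precipitated RNA for most genes.

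Across the 5 comparisons, which share no library, 23 members were higher with 5-Aza-CdR in all 5, against 12.1% of all genes. Whether the J2 and Z22 libraries of a treatment came from the same RNA was not stated, so the 5 are not taken as independent. At least 4-fold higher in all 5 were Dazl, Tex19.1, Tdrd9 and Mov10l1, against 0.423% of all genes, and 14 members were so in at least 3, against 1.31%. At the other end, 17 members were 4-fold higher in none, against 88.8% of all genes. Over the 37 genes the changes in J2 and Z22 (5-Aza-CdR over DMSO) had a Spearman rho of 0.83, where all genes had 0.27. As a description only, this value is across genes, which are not independent replicates.

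Dazl binds the RNA of germ cells and is needed for their development in the fetal gonad. It lies at chr17:50279395-50293636 on the minus strand (ENSMUSG00000010592). It had 0 counts in total RNA with DMSO, 0 with ADAR1i-124 and 107 with 5-Aza-CdR. In J2 DMSO and ADAR1i-124 gave 1 count each, 5-Aza-CdR gave 247 and the combination 172. In Z22 the counts in that order were 0, 1, 56 and 58, and IgG had 3. Every library with 5-Aza-CdR was far above every library without it. Against the 3 counts taken as the floor of the DMSO library, total RNA was at least 17.6-fold higher with 5-Aza-CdR. Ddx4, the Vasa helicase of germ cell granules, was lower in level, at 0.203 CPM in total RNA, 2.26 in J2 and 3.55 in Z22 with 5-Aza-CdR, and at most 3 counts in any library without it.

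Tex19.1, a germ cell protein that restrains retrotransposons, had the highest log2 change of the set in all 5 comparisons. Located at chr11:121146143-121148319 on the plus strand (ENSMUSG00000039329), it had 0, 0 and 173 counts in total RNA with DMSO, ADAR1i-124 and 5-Aza-CdR. J2 gave 0, 0, 383 and 222 counts, and Z22 gave 0, 3, 154 and 137. In IgG it had 3 counts. The groups did not overlap in any fraction, and total RNA was at least 28.4-fold higher with 5-Aza-CdR than the floor of the DMSO library. Its neighbour Tex19.2 is a close copy, so reads may have been split between them. Tex19.2 had 0 counts in each of the 6 libraries without 5-Aza-CdR and 12, 45, 28, 14 and 8 counts with it.

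Among the Tudor and helicase proteins of the piRNA pathway, Tdrd9 had the most reads in total RNA with 5-Aza-CdR of the genes that were low without it. It is a Tudor domain helicase at chr12:111971559-112068854 on the plus strand (ENSMUSG00000054003). Total RNA held 13, 2 and 411 counts of it with DMSO, ADAR1i-124 and 5-Aza-CdR. J2 held 13, 8, 279 and 173, Z22 held 3, 16, 157 and 126, and IgG held 12. It was therefore detected in most libraries without the compound, and its fold over DMSO in total RNA was 15.6 (9.0 to 29.5). With DMSO and 5-Aza-CdR in J2 the fold was 19.7 (11.3 to 37.4).

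Mov10l1, the RNA helicase that feeds piRNA precursors into processing, lies at chr15:88982909-89055152 on the plus strand (ENSMUSG00000015365). Its counts were 0, 0 and 62 in total RNA, 0, 1, 191 and 149 in J2, and 0, 1, 132 and 59 in Z22, with 1 in IgG. Libraries with and without 5-Aza-CdR were again well apart. Asz1, a mitochondrial partner of the pathway, had 0, 0 and 19 counts in total RNA, 0, 2, 84 and 67 in J2, and 0, 0, 26 and 15 in Z22. In total RNA Asz1 was at least 3.12-fold higher than the floor, and in J2 at least 25.7-fold. Mael, which acts in the same granules, had at most 1 count in any library.

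The PIWI proteins differed among themselves. Piwil2, the PIWI protein of fetal and early germ cells, had 5, 5 and 87 counts in total RNA, 18, 3, 111 and 82 in J2, and 1, 4, 112 and 55 in Z22, with 1 in IgG. Its fold over DMSO was 8.56 (3.53 to 27.0) in total RNA and 5.65 (3.42 to 9.88) in J2. Piwil4, the nuclear PIWI protein that guides methylation of transposable elements, was already present without 5-Aza-CdR. Total RNA held 107, 36 and 474 counts of Piwil4, J2 held 60, 25, 135 and 79, Z22 held 19, 29, 50 and 50, and IgG held 70. Its fold over DMSO was 2.18 (1.76 to 2.72) in total RNA and 2.06 (1.51 to 2.84) in J2, below the 4-fold line in all 5 comparisons.

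Tdrd7, a Tudor protein that is also known outside the germline in the lens, held the largest share of the set's reads in each library. It had 1855, 1078 and 3322 counts in total RNA, 965, 988, 1484 and 1232 in J2, 444, 1172, 993 and 970 in Z22, and 1383 in IgG. In total RNA this is 109, 61.2 and 96.1 CPM, so the level with 5-Aza-CdR lay between those of the libraries without it. In J2 it is 79.2, 68.6, 112 and 105 CPM, and in Z22 50.9, 79.9, 122 and 106. In both antibodies the libraries with 5-Aza-CdR thus lay above those without it, by less than 4-fold. Tdrkh, the Tudor protein that anchors PIWI proteins at mitochondria, went the other way. Its level was 4.76, 4.88 and 2.08 CPM in total RNA, 5.50, 6.18, 3.16 and 3.14 in J2, and 9.97, 7.71, 3.80 and 2.84 in Z22. In total RNA the fold with 5-Aza-CdR over DMSO was 0.438 (0.314 to 0.609), and Tdrkh was lower with 5-Aza-CdR in all 5 comparisons. Its locus overlaps Oaz3 on the other strand, with 7 counts in total DMSO, and Gm42463 on the same strand, with 8.

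Stk31, a Tudor domain kinase, had 0 counts in each of the 6 libraries without 5-Aza-CdR. With it, total RNA had 0.231 CPM, J2 2.26 and 2.04, and Z22 1.96 and 0.547. The other Tudor genes were low. Tdrd1, a partner of PIWI proteins, had 0 counts in total RNA throughout, at most 1.02 CPM in J2 and at most 0.547 in Z22. Tdrd12 reached 2.33 CPM in Z22 and Tdrd5 at most 1.19 CPM in any library, and Tdrd6 had at most 0.170 CPM.

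**Figure D3:**
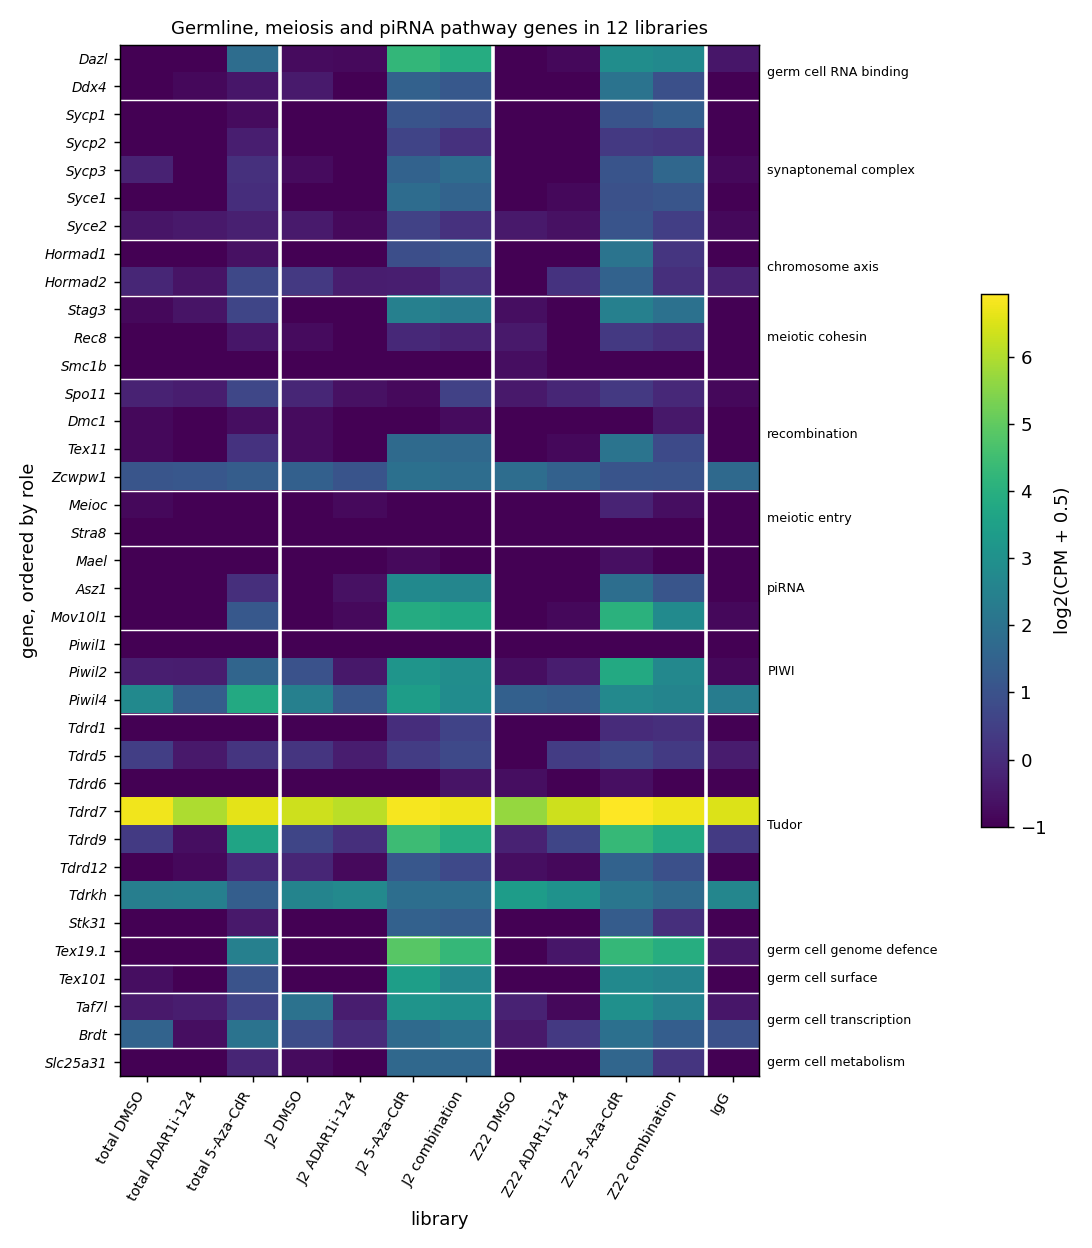
Heat map of log2(CPM + 0.5) for the 37 genes on the y axis, grouped by role, in 12 libraries on the x axis, with white lines between total RNA, J2, Z22 and IgG. The columns with 5-Aza-CdR are brighter for most roles, Tdrd7 is bright in each column and the rows of Stra8 and Piwil1 are dark throughout.

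Meiotic structure genes were detected at lower levels. Sycp3, a filament protein of the chromosome axis, had 6, 0 and 20 counts in total RNA, 1, 0, 31 and 35 in J2, and 0, 0, 13 and 24 in Z22, with 1 in IgG. In total RNA its fold over DMSO, 1.64 (0.635 to 4.99), was within counting error. Its locus overlaps Chpt1 on the other strand, which had 1218 counts in total DMSO, and the strand setting of the counting was not stated. Sycp1, the transverse filament of the synaptonemal complex, had 0 counts in all 6 libraries without 5-Aza-CdR and 3, 21, 16, 13 and 19 with it. Syce1, a central element protein, had 0.521 CPM in total RNA with 5-Aza-CdR, 3.01 and 2.38 in J2, and 1.47 and 1.64 in Z22. Sycp2 and Syce2 were below the 4-fold line in all 5 comparisons. Syce2 overlaps Gcdh on the other strand, which had 236 counts in total DMSO.

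Stag3, the meiotic cohesin subunit, had 1, 3 and 37 counts in total RNA, 0, 0, 66 and 50 in J2, and 1, 0, 41 and 31 in Z22. All libraries with 5-Aza-CdR lay above all without it, and in J2 the library with 5-Aza-CdR was at least 20.2-fold over the floor. Rec8 and Smc1b, the other meiotic cohesin genes, reached at most 0.735 and 0.115 CPM. Hormad1, which marks unpaired chromosome axes, had 0 counts without 5-Aza-CdR and 0.145, 1.35, 1.53, 3.67 and 0.656 CPM with it in total RNA, J2 and Z22. Hormad2, of the same family, differed between fractions. Over DMSO its fold with 5-Aza-CdR was 2.81 (1.25 to 7.44) in total RNA and 0.407 (0.0916 to 1.46) in J2, and in Z22, with 19 counts against 0, it was at least 6.77-fold over the floor of 3 counts. The combination over ADAR1i-124 gave 2.14 (0.544 to 9.97) in J2 and 0.891 (0.235 to 2.96) in Z22.

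Among the recombination and meiotic entry genes, Tex11 stood apart from the rest. Tex11, a meiosis gene on the X chromosome, was at 0.607 CPM in total RNA with 5-Aza-CdR, 2.86 and 2.72 in J2, and 3.67 and 1.2 in Z22, and at no more than 1 count in any library without it. Spo11, the enzyme that makes meiotic DNA breaks, and Dmc1, the meiotic recombinase, were below the 4-fold line in all 5 comparisons. Zcwpw1, a reader of histone marks at recombination sites, was at 1.60 to 3.09 CPM in the 6 libraries without 5-Aza-CdR and at 1.53 to 3.31 CPM with it, and overlaps Pilra on the other strand, with 4 counts in total DMSO. Stra8 and Meioc, which act at meiotic entry, were 4-fold higher in none of the 5.

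Tex101, a surface protein of male germ cells, had 2, 0 and 54 counts in total RNA, 0, 0, 139 and 70 in J2, and 0, 0, 52 and 50 in Z22. It was not seen in IgG, where 0 of 15324595 counts allows up to 0.196 CPM. Taf7l, a germ cell relative of a general transcription factor, had 4, 5 and 35 counts in total RNA, 42, 4, 109 and 85 in J2, and 3, 1, 60 and 48 in Z22, with 3 in IgG. The 42 counts in J2 DMSO set Taf7l apart from the other leading genes, and its fold there was 2.38 (1.65 to 3.48). Brdt, a bromodomain protein of spermatocytes, was present without 5-Aza-CdR, at 2.35 CPM in total DMSO, 0.114 with ADAR1i-124 and 3.59 with 5-Aza-CdR. Slc25a31, a germ cell ADP/ATP carrier, had 0.376 CPM in total RNA with 5-Aza-CdR, 2.71 and 2.63 in J2, and 2.57 and 0.656 in Z22, and at most 1 count without it.

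Per kilobase of exon, the order of levels in J2 with 5-Aza-CdR was led by Tdrd7 at 28.2 CPM per kb and Tex19.1 at 15.4. Tex101 followed at 6.31, Dazl at 4.86, Tdrd9 at 3.88, Taf7l at 3.65 and Mov10l1 at 3.43 CPM per kb. In total RNA of the same treatment the order was Tdrd7 at 24.3, Tex19.1 at 2.67, Piwil4 at 2.55 and Tdrd9 at 2.20 CPM per kb. The last 3 of these lie close together, and there is no replicate spread by which to part them.

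With 5-Aza-CdR, the median member was at a higher CPM in precipitated than in total RNA. The median log2 ratio of J2 to total RNA was 0.98 with 5-Aza-CdR, against -0.08 for all genes. Without 5-Aza-CdR 17 to 22 members were at 0 counts in each of these total RNA and J2 libraries, so no such ratio is read there. On the scale with 0.5 CPM added, at least 4-fold over total RNA in J2 were 6 members, Dazl, Tex101, Tex19.1, Asz1, Mov10l1 and Taf7l, against 0.32% of all genes. For Z22 the median was 0.95, against -0.01 for all genes, and 5 members, Ddx4, Hormad1, Piwil2, Mov10l1 and Taf7l, were 4-fold over total RNA, against 0.53% of all genes. Mov10l1 was at 1.79 CPM in total RNA, 14.4 in J2 and 16.2 in Z22, with ratios of 8.01 (5.99 to 10.9) and 9.01 (6.62 to 12.4). For Piwil4 the ratio ran below 1, at 0.741 (0.607 to 0.898) in J2 and 0.447 (0.327 to 0.598) in Z22. The treatment behind the IgG library was not stated, so carry-over of these transcripts was not tested, and the part of differences between cultures, such as that of Pdgfra, was not tested.

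**Figure D4:**
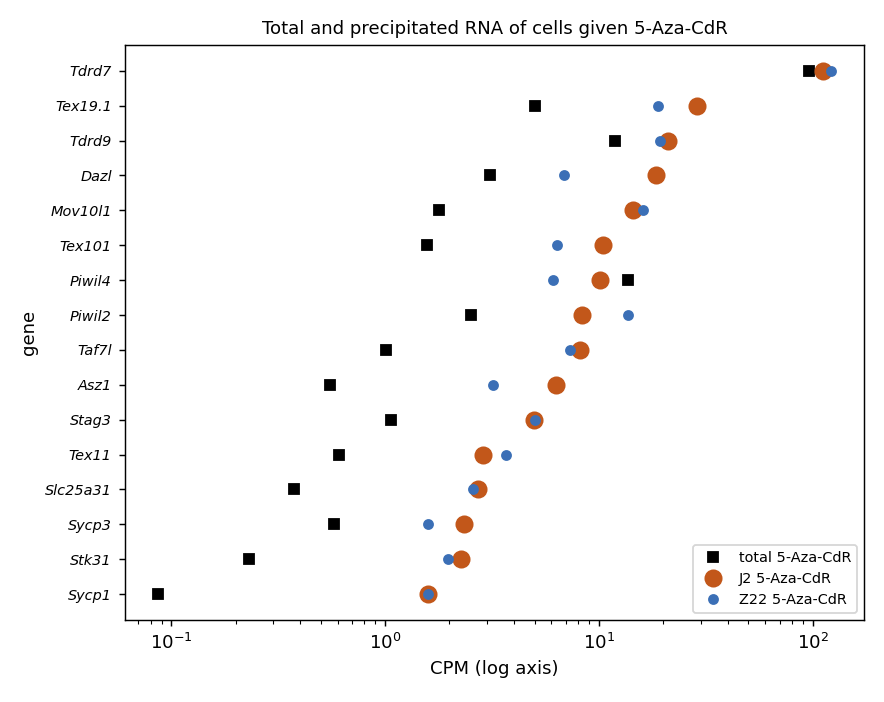
CPM on a log axis of the 16 genes described in full, in the total RNA (black), J2 (orange) and Z22 (blue) libraries of cells given 5-Aza-CdR. The black squares lie left of both circles for all genes but Piwil4, where total RNA is highest at 13.7 CPM.

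With ADAR1i-124 alone, few members passed the 4-fold line. In total RNA no member was 4-fold higher with ADAR1i-124 than with DMSO, against 0.79% of all genes, and 1 was 4-fold lower, against 0.85%. That was Brdt, with a fold of 0.0483 (0.00565 to 0.186). The median log2 change over members was 0 in total RNA, -0.03 in J2 and 0 in Z22. In J2 no member was 4-fold higher, against 0.335% of all genes, and 1, Taf7l, was 4-fold lower, against 1.12%, with a fold of 0.0806 (0.0210 to 0.222), from 42 to 4 counts. In total RNA Taf7l had 4 counts with DMSO and 5 with ADAR1i-124, a fold of 1.21 (0.260 to 6.08). In Z22 no member was 4-fold higher or lower, against 5.09% and 0.373% of all genes. Added to 5-Aza-CdR, ADAR1i-124 went with a median of -0.12 in J2 and -0.34 in Z22, where 29 members were lower, against 48.3% of all genes, and 5 were higher, against 27.8%. The medians of all genes were 0 in both. Mov10l1 was at 16.2 CPM in Z22 with 5-Aza-CdR and 6.45 with the combination, a fold of 0.399 (0.289 to 0.547). The comparisons with ADAR1i-124 use the same libraries as those with 5-Aza-CdR.

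Of 35 other germline genes that are not members, 2 were 4-fold higher with 5-Aza-CdR in total RNA, Mnd1 and Gtsf1, where 2.66% of all genes were, and 1, Psmc3ip, was 4-fold lower, where 0.755% were. Psmc3ip was also 4-fold lower for the combination over ADAR1i-124 in Z22, like 0.699% of all genes. Mnd1, a meiotic recombination factor, went from 5.94 to 29.8 CPM, and Gtsf1, a piRNA pathway protein, from 0.0588 to 1.79 CPM. In J2, 5 and 4 of the 35 were 4-fold higher in the comparisons with DMSO and ADAR1i-124, against 1.37% and 2.35% of all genes, and in Z22 8 and 3 were, against 8.39% and 1.32%. Both libraries with 5-Aza-CdR were 4-fold over both without for Gtsf1, Tex15, Mnd1 and Tex19.2 in J2, and for Gtsf1, Tex15 and Mnd1 in Z22, against 0.841% and 0.633% of all genes. Of 12 genes of the haploid spermatid, among them the protamines, 0 were 4-fold higher in any of the 5 comparisons, where the shares of all genes ran from 1.32% to 8.39%. Only Spem1 of those 12 reached 3 counts in total RNA with 5-Aza-CdR, at 8 counts.

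Silencers of germline genes were detected throughout, all 14 in total DMSO. None passed the 4-fold line in total RNA, where 2.66% of all genes were 4-fold higher and 0.755% 4-fold lower. Of the 14, 9 were lower and 5 higher with 5-Aza-CdR in total RNA, where 50.1% of all genes were higher. Dnmt1, the maintenance DNA methyltransferase, was at 334 CPM with DMSO and 165 with 5-Aza-CdR, Uhrf1, its partner, at 171 and 56.8, and E2f6 at 63.2 and 31.8 CPM. Ehmt2, a histone methyltransferase, was instead at 95.03 and 153 CPM, and Dnmt3a, a de novo DNA methyltransferase, at 55.0 and 73.3. In J2 with DMSO and 5-Aza-CdR, Dnmt1 was at 154 and 198 CPM and E2f6 at 22.2 and 33.9, higher with 5-Aza-CdR, but for ADAR1i-124 and the combination at 355.5 and 175.7 and at 33.3 and 28.0, lower with it, so the direction of both turned with the library compared. In J2 Uhrf1 was at 56.4 CPM with DMSO and 80.8 with 5-Aza-CdR, but at 232 with ADAR1i-124 and 65.7 with the combination, so its direction turned as well. In Z22 the levels in that order were 33.1, 136, 239 and 50.4 CPM, 4-fold higher over DMSO and 4-fold lower for the combination over ADAR1i-124. Lists for other cell types were also read. The leukocyte marker Cd68 was 4-fold higher with 5-Aza-CdR in total RNA, at 75.4 against 8.29 CPM, but lower over DMSO in J2, at 17.8 against 59.6 CPM. For the combination over ADAR1i-124 in J2 it was higher, at 18.4 against 6.46 CPM. In Z22 it was higher over DMSO, at 40.4 against 15.2 CPM, and for the combination over ADAR1i-124, at 53.2 against 13.0. Ptprc had 0 counts with DMSO and 42 with 5-Aza-CdR and Cd3e had 0 in both. In J2 with 5-Aza-CdR Ptprc was at 0 counts. Of 3 fibroblast markers, Pdgfra and Dcn were 4-fold higher in total RNA, where 2.66% of all genes were. Dcn was at 0.411 CPM with DMSO and 129 with 5-Aza-CdR there, but at 1.97 and 2.93 CPM in J2. Lum had 0 and 35 counts in total RNA and 0 in both of these J2 libraries. Pdgfra and Dcn were also 4-fold higher in J2 for the combination over ADAR1i-124, Pdgfra at 26.4 against 4.17 CPM and Dcn at 4.42 against 0.139. Dcn was so in Z22 as well, at 1.75 CPM against 0 counts. Of 6 testis somatic markers none was 4-fold higher in total RNA, although Rhox5, a Sertoli cell homeobox gene, stood at 36.6 CPM with DMSO, 0.851 with ADAR1i-124 and 25.6 with 5-Aza-CdR. Rhox5 was at 8.29, 50.4, 137 and 81.8 CPM in J2 and had 107, 281, 1137 and 762 counts in Z22 with DMSO, ADAR1i-124, 5-Aza-CdR and both, so it was 4-fold higher over DMSO in both and 4-fold separated in Z22. None of 5 spermatogonia markers was 4-fold higher in total RNA, where Zbtb16 and Utf1 had 0 counts with both treatments and Id4 had 2 counts with DMSO and 44 with 5-Aza-CdR. Gfra1, a receptor of spermatogonial stem cells, was 4-fold higher over DMSO in Z22, at 3.67 and 18.5 CPM, as were 8.39% of all genes. For ADAR1i-124 and the combination in Z22, Gfra1 was at 9.82 and 13.9 CPM. In total RNA it was at 6.82 CPM with DMSO, 15.4 with ADAR1i-124 and 13.7 with 5-Aza-CdR. The part of these marker differences in the members' values was not tested.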

How the data were processed

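RNA of Yumm1.7 cells was sequenced in 13 libraries (total RNA 4, J2 4, Z22 4, IgG 1), and conditions were taken from the labels. The authors mapped the reads with STAR in snakePipes to GRCm38, named mm10 in their processing notes, and deposited raw counts per gene, with no normalization, in 1 table of 54532 genes. The counting tool and its strand setting are not given in the sources used here. Identifiers were matched to GENCODE M21, which gave 54495 of them a symbol. Counts of each library were divided by its table total to give CPM, and 0.5 CPM was added before log2. Changes were set against a 4-fold line and against the same share over the 33781 genes with at least 1 count in the 11 libraries compared. The combination library of total RNA was left out. No test was run on these single libraries, and a permutation of 2 libraries against 2 could not go below p = 0.33. Total counts per library, given with the levels, set the floor of 3 counts, which is 0.0868 to 0.367 CPM.

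Members described in full were those 4-fold higher with 5-Aza-CdR in at least 3 of the 5 treatment-matched comparisons and those at 5 CPM or more in total DMSO. Ddx4, Tdrkh, Syce1, Hormad1, Brdt, Zcwpw1 and other members were named from their role or their range, and Gm42418, Cd68, Rhox5 and Tex19.2 after their values were seen. The members and gene lists were chosen with earlier results of these data known. The result of 1 marker gene is not reported here. The calculations were tested on simulated counts. Alternatives covered edgeR's TMM factors, DESeq2's size factors, totals without the 20 highest genes, pseudocounts of 0.1 and 2 CPM, a 2-fold line, other detection floors, other backgrounds, another library without 5-Aza-CdR and leaving out each J2 and Z22 library. Python 3.11.15 with numpy 2.4.6, pandas 2.3.3, scipy 1.17.1 and matplotlib 3.10.9, and R 4.3.3 with edgeR 4.0.16 and DESeq2 1.42.0 were used.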

Additional observations from a re-analysis of the deposited data

Results flagged for a closer look

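Zcwpw1 moved in opposite directions in J2 and Z22. Its log2 change with 5-Aza-CdR was 0.49 over DMSO and 0.76 for the combination over ADAR1i-124 in J2, and -0.78 and -0.44 in Z22. The difference between the antibodies was not tested, and the fold intervals include 1 in 3 of the 4 comparisons. Pilra overlaps the gene on the other strand.

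The combination library of total RNA, which the comparisons leave out, held reads of members at or above 3 counts that were above their level in total DMSO relative to the library total. Sycp3 had 161 counts there, Rec8 25, Smc1b 18, Meioc 16, Syce2 15, Tdrd6 9, Hormad2 6, Tdrkh 6, Tdrd9 4 and Spo11 3. Tdrd7, the most abundant member elsewhere, had 1 count. Because its counts follow the opposite strand, none of these values is read as a level of the gene.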

How the results depend on the processing

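Of the 92 alternative values computed, 66 stayed within 1.5 times a reported count or within the 95% interval of a reported median or share. Another scaling gave 24 medians in the 8 comparisons whose reported median was not 0, and 0 of them changed sign, while a pseudocount cannot turn the sign of a gene. The number of members 4-fold higher in total RNA, 4, became 12 with a pseudocount of 0.1 CPM, 1 with 2 CPM, 11 at a 2-fold line and 7 against ADAR1i-124, where 5.72%, 1.25%, 9.36% and 2.84% of all genes passed. With TMM factors, size factors and totals without the 20 highest genes it was 3 each time. The shares of all genes were then 2.37%, 2.26% and 2.5%. The 12 members separated in J2 became 18 with 0.1 CPM, 4 with 2 CPM and 18 at a 2-fold line, against 2.05%, 0.352% and 2.68% of all genes. The 11 in Z22 became 20, 4 and 21 in that order, against 1.79%, 0.192% and 2.62%. Under the same scalings as above, the Z22 count was 9, 9 and 12, against 0.477%, 0.491% and 0.589% of all genes. The J2 count stayed at 12, against 0.802%, 0.805% and 0.85%. Leaving out each library gave 12 to 15 members in J2 and 11 to 17 in Z22, the last without the Z22 combination library, and all genes gave 1.04% to 1.78% and 0.799% to 4.83%. By its construction, leaving a library out can keep or raise such a count but not lower it. With pseudocounts of 0.1 and 2 CPM the median log2 change was 1.30 and 0.16 in total RNA, 1.84 and 0.63 in J2 over DMSO, 2.93 and 0.75 in J2 for the combination over ADAR1i-124, 3.59 and 0.96 in Z22 over DMSO, and 2.69 and 0.41 in Z22 for the combination over ADAR1i-124. At 0.5 CPM and 4-fold, the share past the lines was 5.43% in total RNA, 1.73% in J2 and 1.43% in Z22 among genes with a mean of 1 CPM or more, and 4.26%, 1.15% and 0.815% among protein-coding genes. At a floor of 10 counts, 7 members were detected in total DMSO and 4 with ADAR1i-124. The cause of the shifts with the pseudocount lies in its construction, since most members are under 1 CPM without 5-Aza-CdR. Depth limits the low members most, and with 1 library per condition the spread between cultures is unknown.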
